A study of Mus musculus with 4 samples.

Results

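The interferon-gamma inducible GTPases described here were 10 genes, taken by their symbols from the 32285 genes of each deposited matrix: the immunity-related GTPases Irgm1, Irgm2, Igtp, Iigp1, Tgtp1 and Tgtp2, and the guanylate-binding proteins Gbp2, Gbp3, Gbp6 and Gbp7. They were followed in 4 droplet single-cell RNA libraries of mouse LSK bone marrow cells: lineage-negative, Sca-1 positive and Kit positive, the sort that enriches stem cells and early progenitors. Each genotype had 1 library, made from a pool of 5 mice aged 8 to 12 weeks. Control mice carried Vav1-iCre, a recombinase driven in blood-forming cells, and no other mutant allele. Ikk2-CA mice carried in addition a floxed, constitutively active Ikk2 inserted at the Rosa26 locus, Jak2 V617F mice a floxed Jak2 V617F allele, and double mutants both alleles, each in 1 copy per the labels. Ikk2 releases NF-κB from its inhibitors, and the V617F change makes Jak2 signal without a cytokine. The crosses also brought in an EGFP reporter of NF-κB on an FVB background. Animals of a pool could not be told apart, so no spread between mice was measured, no test between genotypes was made, and every interval below is a 95% interval for counting error only.

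Interferon-gamma binds the receptor pair Ifngr1 and Ifngr2, which activates the kinases Jak1 and Jak2. The promoters of its target genes hold GAS sites and ISRE sites, and interferon regulatory factors such as Irf1 bind the latter. Among the most strongly induced of these targets in mouse cells are large families of GTPases that attack the vacuoles of intracellular pathogens. Irgm1, Irgm2 and Igtp belong to the regulatory subgroup, which keeps the effector proteins (Iigp1, Tgtp1 and Tgtp2) off the cell's own membranes, and guanylate-binding proteins coat and break open pathogen vacuoles. Mice without Irgm1 are known to have defective blood stem cells under interferon-gamma.

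Because these genes are known as interferon targets, the promoter stretch with ISRE-like letters is shown for each gene that has a promoter window. RefSeq windows of the GRCm38.p6 build, from 250 bases before to 50 bases after the annotated start, matched 8 of the 10 genes by symbol with 9 windows in all. They were searched on both strands for ISRE-like letters: GAAA, any 2 bases and GAAA again, which read TTTC on the other strand. Every one of the 8 genes held a match, in 8 of 9 windows, against 3.44% of 32851 windows of this length in the table. The matches began between 30 bases (Irgm1) and 77 bases (Tgtp1) before the RefSeq start. The stretches of Irgm1, Irgm2 and Tgtp1 lie inside the gene spans given below, which place the gene start elsewhere. Capitals mark the matched letters, and each stretch is written 5′ to 3′ on the gene's strand.
Irgm1 (chr11:48871421-48871470, minus strand): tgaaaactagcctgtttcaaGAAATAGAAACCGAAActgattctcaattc
Igtp (chr11:58199502-58199551, plus strand): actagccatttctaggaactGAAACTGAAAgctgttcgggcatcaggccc
Irgm2 (chr11:58214893-58214942, plus strand): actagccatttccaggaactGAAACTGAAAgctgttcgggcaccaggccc
Tgtp1 (chr11:48992294-48992343, minus strand): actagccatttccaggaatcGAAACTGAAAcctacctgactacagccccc
Tgtp2 (chr11:49064253-49064302, minus strand): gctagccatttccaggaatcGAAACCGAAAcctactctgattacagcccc
Gbp2 (chr3:142620584-142620633, plus strand): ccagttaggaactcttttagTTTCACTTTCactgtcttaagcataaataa
Gbp3 (chr3:142559979-142560034, plus strand): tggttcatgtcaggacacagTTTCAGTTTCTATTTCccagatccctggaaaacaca
Gbp7 (chr3:142530263-142530312, plus strand): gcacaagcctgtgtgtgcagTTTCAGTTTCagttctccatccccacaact
Irgm1 and Gbp3 each held 2 overlapping matches, which run together in the capitals. The 4 stretches of Igtp, Irgm2, Tgtp1 and Tgtp2 began alike and also held, just upstream of the capitals, GAS-like letters (TTC, any 3 bases, GAA), which 8.30% of all windows held and 5 of the 9 windows here. In Tgtp1 that match began 88 bases before the start. At the best ungapped offset the windows of Igtp and Irgm2 were 68.1% identical over 270 bases and those of Tgtp1 and Tgtp2 51.7% over 292 bases. NF-κB-like letters (GGGA, any 4 bases, CC, on both strands) were in 1 of the 9 windows (Gbp2), against 20.7% of all windows. These matches describe the letters of the windows and not binding.

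The genes lie in clusters, which bears on how reads are assigned. In GRCm38 (the assembly behind mm10), Irgm1 (chr11:48861968-48871683), Tgtp1 (chr11:48985327-48994172) and Tgtp2 (chr11:49057194-49064206) are neighbours on the minus strand of chromosome 11. Igtp (chr11:58199556-58207591) and Irgm2 (chr11:58199618-58222782) share 162 exonic bases on the plus strand. Gbp7 (chr3:142530342-142550149), Gbp3 (chr3:142560026-142573209) and Gbp2 (chr3:142620602-142638008) are in 1 cluster on chromosome 3, Gbp6 (chr5:105270702-105293698) is on chromosome 5 and Iigp1 (chr18:60376027-60392634) on chromosome 18. Of the 90-base words in their GENCODE transcripts, 74.8% of those of Tgtp1 and 78.6% of those of Tgtp2 occur in another gene, mostly each other, and 65.6% of those of Gbp6 occur in Gm43302, Gbp10 or Gbp11. The values of Tgtp1, Tgtp2 and Gbp6 are therefore uncertain as to which copy the reads came from. For Irgm1 and Iigp1 the shared percentage was 0, and for Gbp7, Igtp, Irgm2, Gbp3 and Gbp2 it was between 0.358% and 10.5%.

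After the authors' filter of 500 to 7500 genes and under 10% mitochondrial UMIs, 37344 of 41674 barcodes were kept, between 5268 and 14156 per library. The summed depth was between 102362297 and 197836491 UMIs (unique molecular identifiers, counted molecules) and the median depth between 10606 UMIs per control cell and 24915 per double-mutant cell. Pairs of libraries shared 12 to 60 cell barcodes. Levels are given as CPM, the UMIs of a gene scaled to the total of the library or gate. The pools differed in Xist, at 1176 CPM in control, 250 CPM in Ikk2-CA, 0.257 CPM in Jak2 V617F and 320 CPM in the double mutant. They also differed in cell make-up: the summed CPM of 8 stem cell markers was 335 in control, 97.0 in Ikk2-CA, 330 in Jak2 V617F and 158 in the double mutant, and that of 8 B cell markers 255, 1215, 82.5 and 107 in the same order. The sort genes Kit, Ly6a, Ly6e and Cd34 were present in every library.

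All 10 genes were expressed in LSK cells of every genotype, and their summed level was lower in both libraries with Ikk2-CA. The sum over the genes was 293 CPM in control, 204 CPM in Ikk2-CA, 290 CPM in Jak2 V617F and 203 CPM in the double mutant. Ifng, the transcript of interferon-gamma, was nearly absent from these sorted cells, with 4 UMIs in control, 21 in Ikk2-CA and 8 in Jak2 V617F. The double mutant had 0 Ifng UMIs, which allow up to 0.0259 CPM. The cytokine itself was not measured. The median over the 10 genes of the percent of cells with a UMI, in cells thinned to 5000 UMIs, was 13.3% in control, 11.1% in Ikk2-CA, 12.5% in Jak2 V617F and 10.3% in the double mutant. Without thinning it was 25.5%, 24.8%, 25.2% and 31.2% in the same order, with median depths of 10606, 17726, 11106.5 and 24915 UMIs per cell. No gated cell type is known to lack these genes, and the share closest to background was in the plasma cell gate of Ikk2-CA (98 cells, median 30597 UMIs), where 0% to 6.12% of thinned cells had a UMI of a given gene.

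**Figure D1:**
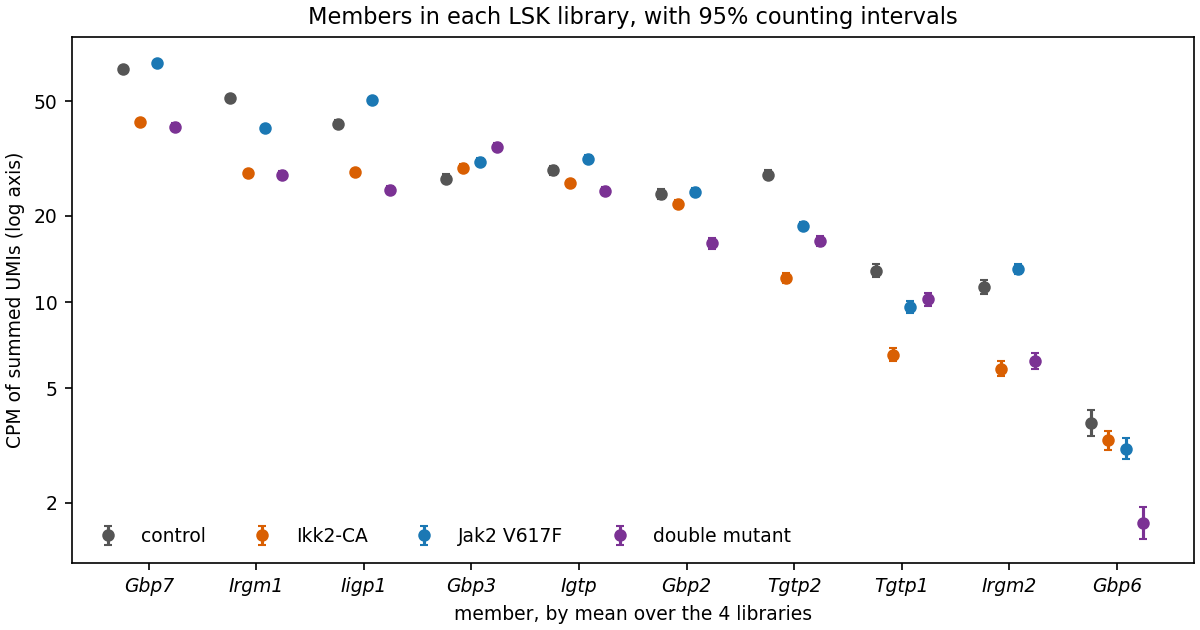
CPM of summed UMIs (log axis) of each gene in the 4 libraries, with 95% counting intervals, in descending order of the mean CPM over the 4 libraries. In 9 of the 10 genes the highest library is control or Jak2 V617F and the lowest Ikk2-CA or the double mutant, and for Gbp3 the double mutant is highest, at 34.7 CPM.

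In the sums over whole libraries the regulatory genes Irgm1 and Irgm2 were low in both libraries with Ikk2-CA. Irgm1 was at 51.5 CPM (50.1 to 52.9) in control, 40.4 in Jak2 V617F, 28.1 in Ikk2-CA and 27.7 in the double mutant. The order was control, Jak2 V617F and then both libraries with Ikk2-CA, which did not differ beyond counting error (ratio 0.986, 0.946 to 1.03). Irgm2 was at 13.1 CPM in Jak2 V617F, 11.3 in control, 6.22 in the double mutant and 5.86 in Ikk2-CA, and again the last pair did not differ beyond counting error (ratio 1.06, 0.972 to 1.16). Igtp varied least of this group, at 31.6 CPM in Jak2 V617F, 28.7 in control, 25.9 in Ikk2-CA and 24.4 in the double mutant.

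The effector genes separated Iigp1 from the Tgtp pair. Iigp1 was highest in Jak2 V617F at 50.5 CPM, followed by control at 41.7, Ikk2-CA at 28.4 and the double mutant at 24.5. Tgtp1 was highest in control at 12.9 CPM, then 10.2 in the double mutant, 9.60 in Jak2 V617F and 6.56 in Ikk2-CA. The double mutant and Jak2 V617F did not differ for Tgtp1 beyond counting error (ratio 1.06, 0.992 to 1.14). Tgtp2 was at 27.8 CPM in control, 18.4 in Jak2 V617F, 16.4 in the double mutant and 12.1 in Ikk2-CA. For both copies Ikk2-CA alone was thus the lowest library and the double mutant was above it, which no other gene of the 10 showed to that degree.

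Of the guanylate-binding proteins, Gbp7 and Gbp2 were lowest in the double mutant and Gbp3 was highest there. Gbp7 was at 68.1 CPM in Jak2 V617F, 64.8 in control, 42.5 in Ikk2-CA and 40.8 in the double mutant. Gbp2 was at 24.2 CPM in Jak2 V617F and 23.8 in control, which did not differ beyond counting error (ratio 1.01, 0.966 to 1.07), then 22.0 in Ikk2-CA and 16.0 in the double mutant. Gbp3 ran the other way, at 26.9 CPM in control, 29.4 in Ikk2-CA, 30.8 in Jak2 V617F and 34.7 in the double mutant. Gbp6 was at 3.79 CPM in control, 3.30 in Ikk2-CA, 3.09 in Jak2 V617F and 1.70 in the double mutant, and with a mean of 2.97 CPM it was the 1 gene of the 10 below the limit of 5 CPM used for the comparison with all genes.

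Against control, Ikk2-CA had lower levels of 9 of the 10 genes, with Gbp3 the exception. The largest difference was in Tgtp2, with 0.437 times the control level (0.414 to 0.462), followed by Tgtp1 at 0.510, Irgm2 at 0.520, Irgm1 at 0.546 and Gbp7 at 0.656. The median log2 ratio over the 10 genes was −0.58. Most genes were also lower in this comparison by CPM: the median of 9601 genes with a mean of at least 5 CPM was −0.25, so the GTPase median was −0.33 relative to it. None of the 10 was 1.5-fold higher, against 3.65%, or 6.87% relative to the median gene. At least 1.5-fold lower were 5 of the 10, against 18.2% of the tested genes, and relative to the median gene 4 of the 10 (Irgm1, Irgm2, Tgtp1 and Tgtp2) against 6.76%. At least 2-fold lower was 1 (Tgtp2) against 3.8%. Igtp, Gbp2 and Gbp6 were lower by CPM (log2 ratios −0.15, −0.12 and −0.20) but above the median gene, so their direction depends on the scaling.

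Jak2 V617F alone left the group near its control level. The median log2 ratio was 0.05, against −0.01 for the median gene. Iigp1 was at 1.21 times control (1.17 to 1.26), Irgm2 at 1.16, Gbp3 at 1.15 and Igtp at 1.10. On the other side Tgtp2 was at 0.661 times control (0.629 to 0.696), Tgtp1 at 0.745, Irgm1 at 0.786 and Gbp6 at 0.814. Tgtp2 was the 1 gene of the 10 at least 1.5-fold lower, against 1.66% of the tested genes, and relative to the median gene against 1.64%. None was 1.5-fold higher, against 1.17%, or 1.2% relative to the median gene, and none 2-fold lower, against 0.625%.

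In the double mutant against control the median log2 ratio was −0.71, or −0.46 relative to the median gene, which was at −0.26. At least 1.5-fold lower were 6 of the 10, against 17.4% of the tested genes. At least 2-fold lower was 1 (Gbp6) against 2.95%, and none was 1.5-fold higher, against 2.12%. Gbp6 is not among the tested genes, and of the 9 that are, 5 were at least 1.5-fold lower and 0 at least 2-fold lower. Relative to the median gene it was 3 (Irgm1, Irgm2 and Gbp6) against 5.29%, and Gbp3 was 1.5-fold higher against 6.19%. Gbp6 was at 0.449 times control (0.381 to 0.528), Irgm1 at 0.539 and Gbp3 at 1.29 (1.23 to 1.35). Igtp, at a log2 ratio of −0.24, was 0.02 above the median gene.

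Set against each single mutant, the double mutant resembled Ikk2-CA for most of the group. Against Ikk2-CA the median log2 ratio was −0.04 (median gene 0.02), with Tgtp1 at 0.64, Tgtp2 at 0.43 and Gbp3 at 0.24, and with Gbp6 at −0.96, Gbp2 at −0.46 and Iigp1 at −0.21. At least 1.5-fold higher was 1 of the 10 (Tgtp1) against 2.17% of the tested genes, and 1.5-fold lower 1 (Gbp6, so 0 of the 9 genes that passed 5 CPM) against 4.06%. The same genes were counted relative to the median gene, against 1.98% and 4.22%, and none was 2-fold lower, against 1.8%. Against Jak2 V617F the median log2 ratio was −0.57, or −0.33 relative to the median gene. At least 1.5-fold lower were 5 of the 10, and 4 of the 9 that passed 5 CPM, against 16.4%, and relative to the median gene 3 (Irgm2, Iigp1 and Gbp6), against 3.98%. None was 1.5-fold higher, against 1.66%, or 4.29% relative to the median gene. Irgm2, at −1.07, and Iigp1, at −1.04, were at least 2-fold lower there, against 1.51% of the tested genes. The comparisons against control share the control library and those with the double mutant share that library, so their values are not independent of each other.

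**Figure D2:**
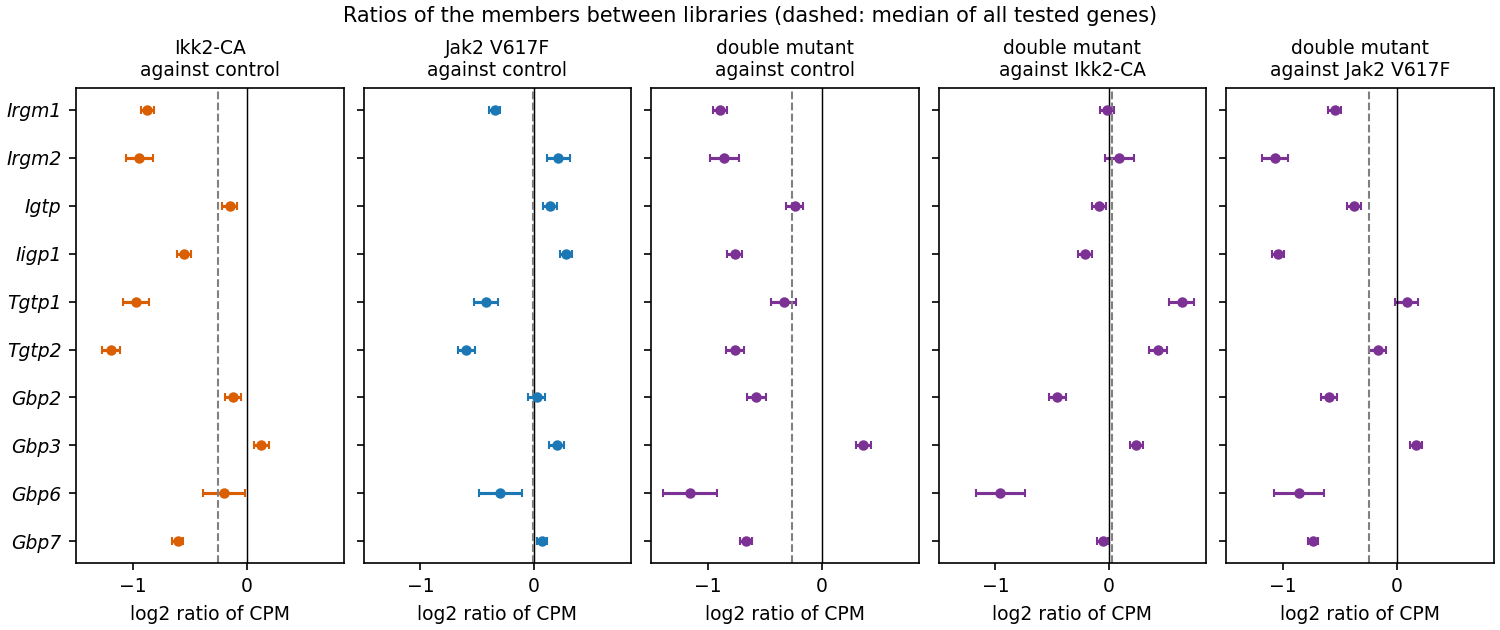
Log2 ratios of CPM of the 10 genes in 5 comparisons of libraries, with 95% counting intervals; the solid line is 0 and the dashed line the median of all tested genes. In Ikk2-CA against control the genes lie between −1.19 (Tgtp2) and 0.13 (Gbp3), and in Jak2 V617F against control between −0.60 (Tgtp2) and 0.28 (Iigp1).

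The summed level of the 10 genes was higher in the stem cell gate than in every other gate of the same library with at least 50 cells. Gates were set on fixed marker lists that hold none of the 10 genes: a cell thinned to 5000 UMIs was gated when at least 3 markers of a type had a UMI and more than of any other type. This placed 41.3% of control, 54.9% of Ikk2-CA, 34.3% of Jak2 V617F and 34.9% of double-mutant cells of that depth. The stem cell gate held 713 control cells. In that library 586 cells, gated or not, had exactly 3 stem cell markers and 1485 were 1 marker short. The summed level of the 10 genes in the stem cell gate was 517 CPM in control, 497 CPM in Ikk2-CA, 459 CPM in Jak2 V617F and 417 CPM in the double mutant. In the lymphoid-primed gate it was 296, 238, 271 and 212 CPM in the same order. In the megakaryocyte gate it was 221, 190, 239 and 167 CPM, and in the granulocyte-monocyte gate 190, 146, 190 and 143 CPM.

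In control, all of the 10 genes but Gbp3 were lower in the granulocyte-monocyte gate than in the stem cell gate. Iigp1 in control was at 107 CPM (99.8 to 115) in the stem cell gate and 41.1 CPM in the lymphoid-primed gate. It was at 28.5 CPM in the megakaryocyte and 14.8 CPM in the granulocyte-monocyte gate. An Iigp1 UMI was found in 29.0% of thinned control stem-gate cells and in 6.08% of granulocyte-monocyte-gate cells. In the double mutant Iigp1 was at 88.6 and 7.75 CPM in the same pair of gates. Gbp2 in control was at 50.7 CPM in the stem cell gate and 12.9 CPM in the granulocyte-monocyte gate, and Gbp7 at 108 and 42.9 CPM. Gbp6 was at 9.08 CPM in the stem cell gate and 10.0 CPM in the lymphoid-primed gate of control, but at 0.487 CPM in its granulocyte-monocyte gate.

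Gbp3 was distributed in another way. It was at 28.1 CPM in the stem cell gate and 36.8 CPM (34.2 to 39.5) in the granulocyte-monocyte gate of control, at 9.08 CPM in its megakaryocyte gate and 5.86 CPM in its erythroid gate. In the double mutant the granulocyte-monocyte gate was at 43.6 CPM (41.5 to 45.6). The share of cells of the granulocyte-monocyte gate was 14.1% in control, 19.2% in Ikk2-CA, 14.7% in Jak2 V617F and 20.7% in the double mutant.

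Levels in mature and committed cells varied widely. The plasma cell gate of Ikk2-CA (98 cells) was lowest, with a sum of 32.5 CPM, followed by neutrophils of Jak2 V617F (50 cells) at 80.1 CPM and plasmacytoid dendritic cells of Ikk2-CA (71 cells) at 84.4 CPM. In the neutrophil gate 28.0% of the 50 UMIs came from 1 cell. The B cell gate was at 187 CPM in control, 211 CPM in Ikk2-CA, where it held 1292 cells, and 199 CPM in Jak2 V617F. The 51 T and NK cells of Ikk2-CA were at 305 CPM, with Gbp6 at 33.7 CPM (20.9 to 51.6), the highest level of that gene in any gate.

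**Figure D3:**
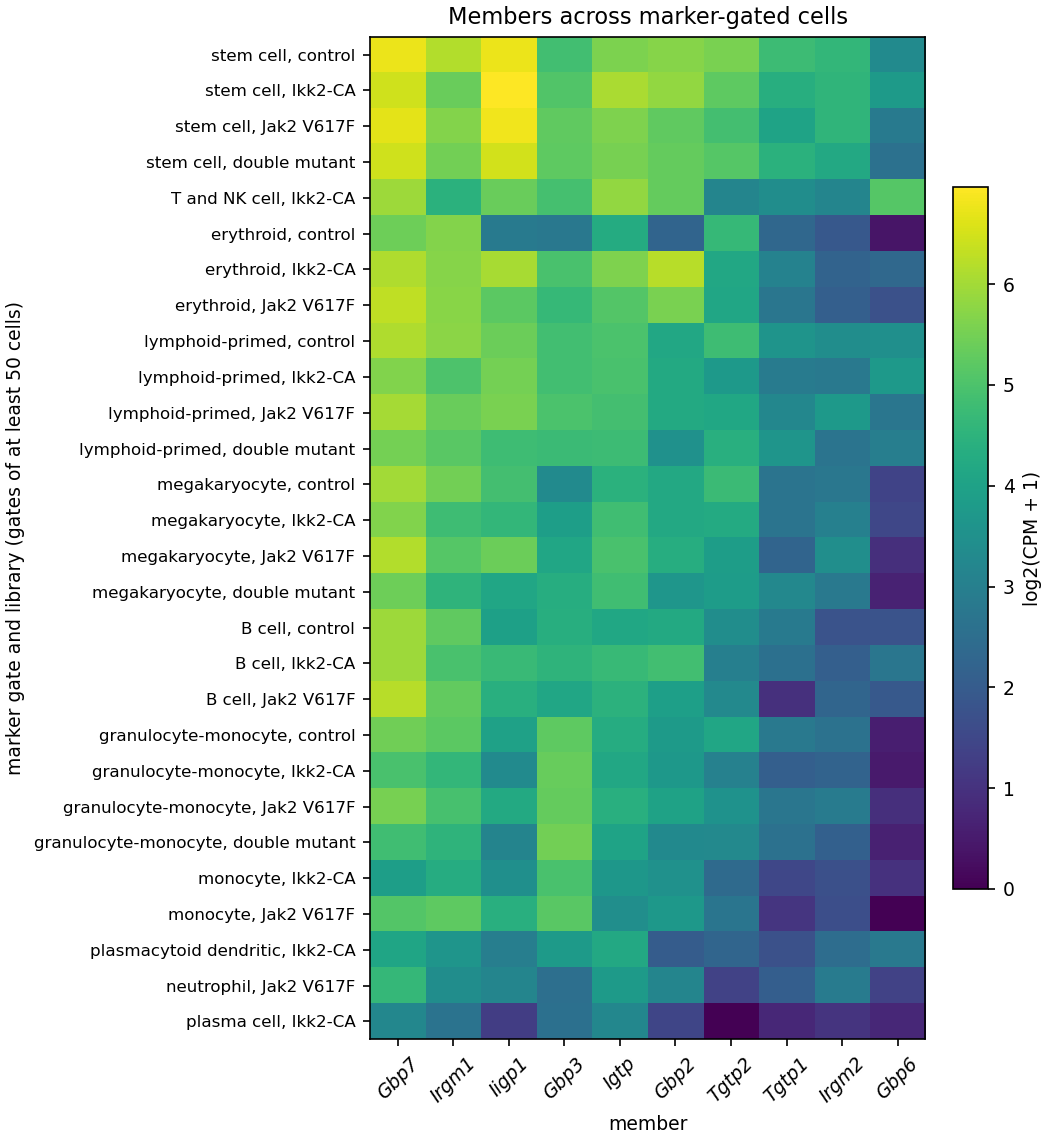
Log2(CPM + 1) of each gene (columns) in every marker gate and library with at least 50 cells (rows, 28 in all). The 4 rows of the stem cell gate are brightest for Iigp1 and Gbp7, the plasma cell row is darkest, and Gbp3 is bright in the granulocyte-monocyte rows, where Iigp1 is dim.

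The difference between Ikk2-CA and control was not the same in each gate. In the stem cell gate 6 of the 10 genes were above the median gene of that gate in Ikk2-CA, and the median log2 ratio was 0.04, or 0.20 relative to the median gene. Igtp was higher there at 66.6 against 47.4 CPM in control (ratio 1.40, 1.19 to 1.66), and Irgm1 lower at 40.0 against 70.8 CPM (ratio 0.565, 0.469 to 0.679). Irgm2 did not differ there beyond counting error, at 22.7 against 23.4 CPM (ratio 0.973, 0.742 to 1.27). In the granulocyte-monocyte gate 7 of the 10 were below the median gene, with a relative median of −0.30, and with Tgtp2 at 7.41 against 16.3 CPM (ratio 0.456, 0.392 to 0.530) and Irgm1 at 23.4 against 36.2 CPM. With gates of at least 4 markers the relative medians were 0.46 in the stem cell and −0.02 in the granulocyte-monocyte gate, and the granulocyte-monocyte value thus came close to the median gene. The relative medians of the lymphoid-primed and megakaryocyte gates were −0.04 and 0.20. The B cell gate, with 132 control cells, was at 0.47, and 7 of the 10 genes were above the median gene. The erythroid gate, described below, was at 1.31, with 9 of the 10 genes above, and a few cells carried many of its UMIs. In stem-gate cells with no Xist UMI the median log2 ratio to control, before setting it against the median gene, was 0.37 in Ikk2-CA, and in Jak2 V617F it was −0.075 in place of −0.26. Whether gates differ in this effect could not be tested with 1 library per genotype.

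The share of stem-gate cells also differed between libraries, at 9.88% of control, 3.41% of Ikk2-CA, 9.91% of Jak2 V617F and 5.35% of double-mutant cells. When every gated class was given its weight in control, the Ikk2-CA median relative to the median gene was −0.12 instead of −0.33, that of the double mutant against control −0.31 instead of −0.46, and that of the double mutant against Jak2 V617F −0.16 instead of −0.33. Cells outside the gates, 58.0% of control UMIs together with rare types, stayed 1 class in this standardisation.

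In the double mutant the median over the 10 genes was below the median gene in the stem cell, lymphoid-primed, granulocyte-monocyte and megakaryocyte gates. Single genes differed. The relative median was −0.19 in the stem cell gate (8 of 10 genes below the median gene), −0.34 in the lymphoid-primed gate (7 of 10), −0.33 in the granulocyte-monocyte gate (8 of 10) and −0.35 in the megakaryocyte gate (6 of 10). In the megakaryocyte gate Gbp3, Tgtp1 and Igtp were above the median gene, at 19.2, 8.56 and 27.6 CPM against 9.08, 5.36 and 20.6 CPM in control. With gates of at least 4 markers the relative medians of the stem cell, granulocyte-monocyte and megakaryocyte gates were −0.04, −0.15 and −0.05. In Jak2 V617F the stem cell gate was at −0.27 and the granulocyte-monocyte gate at 0.09. Irgm1 in the stem cell gate was at 49.9 CPM in Jak2 V617F and 43.8 CPM in the double mutant, so it was below the control level of 70.8 CPM in each mutant. Tgtp2 was likewise at 46.0 CPM in control stem-gate cells and at 36.7, 28.7 and 33.9 CPM in Ikk2-CA, Jak2 V617F and the double mutant.

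**Figure D4:**
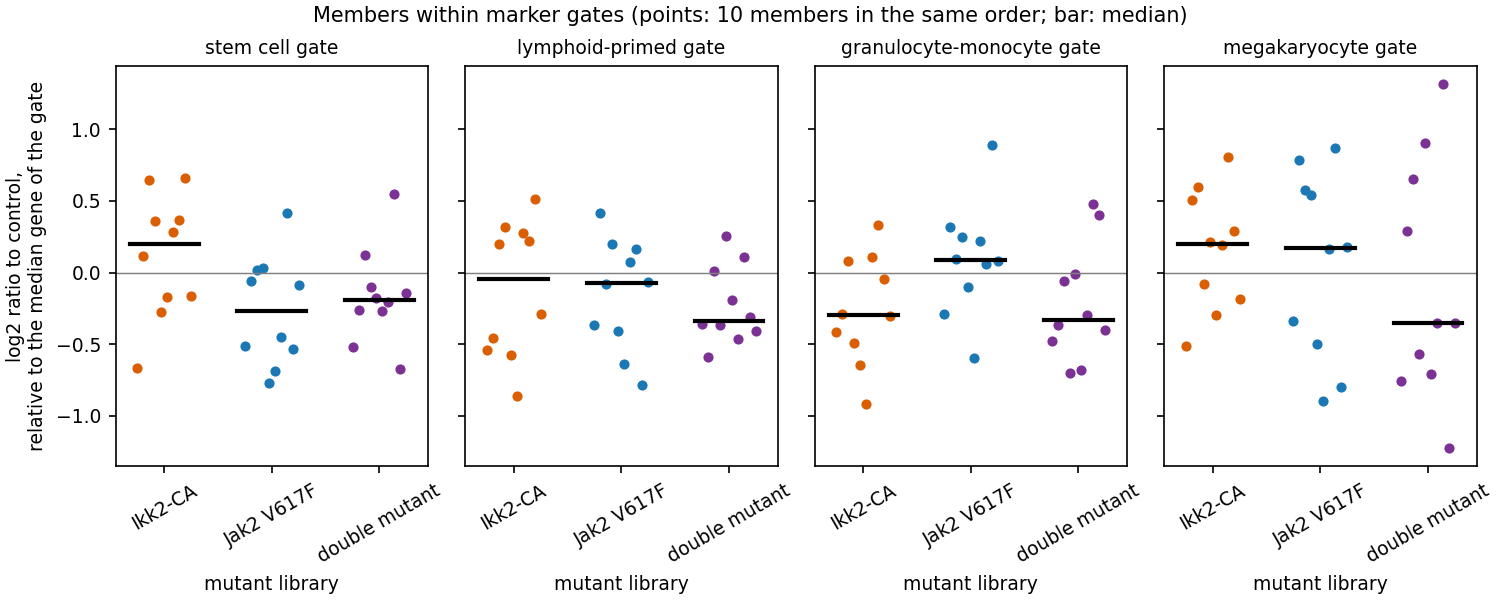
Log2 ratio to control within 4 marker gates, relative to the median gene of the gate; points are Irgm1, Irgm2, Igtp, Iigp1, Tgtp1, Tgtp2, Gbp2, Gbp3, Gbp6 and Gbp7 from left to right and the bar is their median. The Ikk2-CA bar is at 0.20 in the stem cell gate and at −0.30 in the granulocyte-monocyte gate, while the double-mutant bars lie between −0.19 and −0.35.

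The erythroid gate stood out in both single mutants. The summed level was 158 CPM in 103 control cells, 369 CPM in 123 Ikk2-CA cells and 296 CPM in 104 Jak2 V617F cells, and the double mutant had 11 such cells. Gbp2 was at 3.70 CPM (12 UMIs) in control, 72.6 CPM in Ikk2-CA and 45.8 CPM in Jak2 V617F. A few cells carried much of this, since the 5 cells with most of these UMIs held 46.8% of them in Ikk2-CA, 35.3% in Jak2 V617F and 17.9% in control. Without those 5 cells in each library the sums were 211, 207 and 139 CPM, and Gbp2 was at 32.4, 17.6 and 3.30 CPM. Gbp2 had a UMI in 22 thinned Ikk2-CA cells, 12 Jak2 V617F cells and 1 control cell. Without the 5% of cells with most UMIs the control value rested on 52 cells and the sums were 294, 289 and 244 CPM, so the gap between the libraries was smaller. The adult beta-globin Hbb-bs moved with this, at 136 CPM in the control gate, 8047 CPM in Ikk2-CA and 3318 CPM in Jak2 V617F, as did Ly6a at 5.25, 55.4 and 28.5 CPM, and their part in the result was not tested.

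Cells tended to carry these transcripts together. At 5000 UMIs per cell, 71.3% of control, 56.1% of Ikk2-CA, 67.9% of Jak2 V617F and 59.7% of double-mutant cells had a UMI of at least 1 of the 10 genes, and 16.3%, 9.40%, 14.2% and 9.27% had at least 3. The number of cells with both genes of a pair was set beside the number that the product of their single shares gives. The median ratio over the 45 pairs was 1.37 in control, 1.95 in Ikk2-CA, 1.56 in Jak2 V617F and 1.63 in the double mutant, and the ratio was above 1 for all 45 pairs in the first 3 libraries and for 42 in the last. Iigp1 with Gbp6 had the highest ratio in control (2.76, 64 cells against 23.2) and in Ikk2-CA (3.48, 76 against 21.8). The pair with the lowest ratio included Gbp3 in each library: Gbp3 with Gbp7 in control (1.05), Gbp3 with Gbp6 in Ikk2-CA (1.00) and the double mutant (0.529, 5 cells against 9.45), and Irgm1 with Gbp3 in Jak2 V617F (1.07). Within the granulocyte-monocyte gate alone the median ratio was between 1.33 and 1.61, and in control the ratio was above 1 for 29 of the 36 pairs with a value. The 1% of cells richest in these UMIs held between 9.87% and 11.6% of them.

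Cells with several of the GTPases also carried more of other interferon-stimulated genes. In the granulocyte-monocyte gate of control, cells with at least 3 of the 10 genes (63 cells) had a mean of 11.7 UMIs of 32 interferon-stimulated genes that are not GTPases, per 5000 UMIs, cells with 1 or 2 had 4.57 and cells with none (444 cells) had 3.67. The same order held in Ikk2-CA (6.91, 4.41 and 3.90), Jak2 V617F (8.60, 4.86 and 4.07) and the double mutant (6.65, 3.82 and 3.35). Depth before thinning went the other way in control, with a median of 12681 UMIs in cells with at least 3 of the genes and 20566 in cells with none. Genes for ATG8 conjugation, the autophagy machinery that directs these GTPases to vacuoles, were at 3.60 against 3.41 UMIs per cell in control. They were at 3.85 against 3.23 in Ikk2-CA, 3.63 against 3.19 in Jak2 V617F and 3.16 against 2.94 in the double mutant. In control, antigen presentation genes were at 35.3 against 29.0 UMIs per cell and NF-κB target genes at 1.32 against 0.948. The difference was thus not confined to the 32 interferon-stimulated genes.

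**Figure D5:**
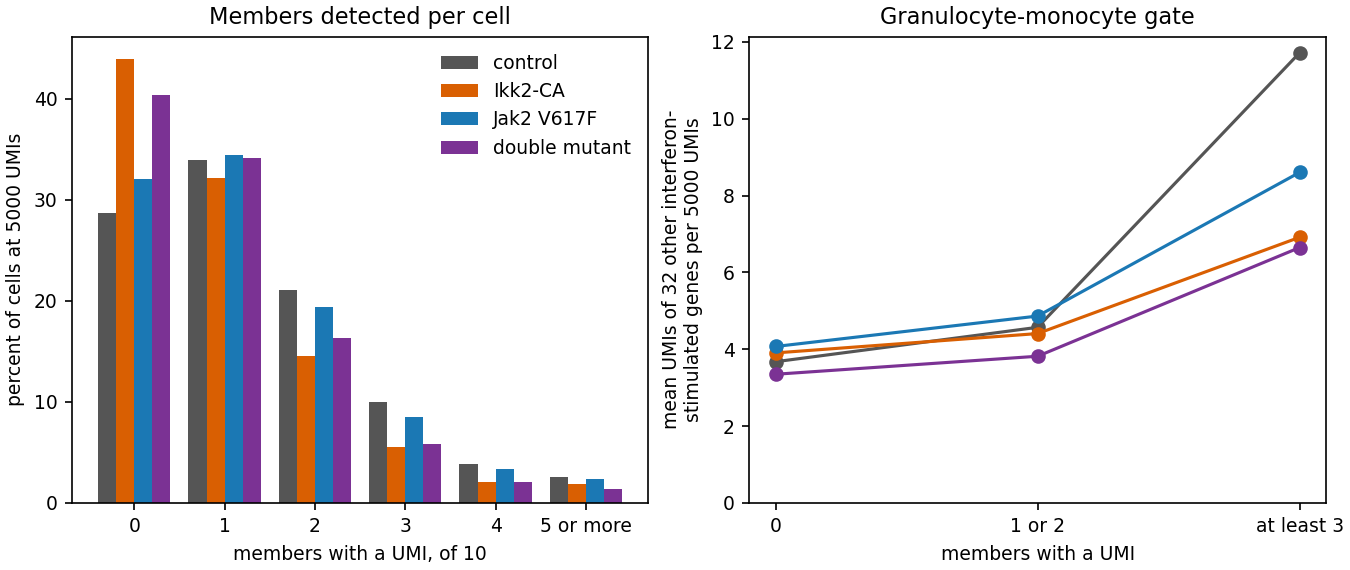
Left, percent of cells (thinned to 5000 UMIs) by the number of the 10 genes with a UMI, in each library; right, mean UMIs of 32 other interferon-stimulated genes per cell in the granulocyte-monocyte gate, by the same number. Cells with none were 28.7% of control and 43.9% of Ikk2-CA, and in each library the right-hand line is highest at 3 or more genes.

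Genes upstream of the GTPases differed in both directions in Ikk2-CA, while in the double mutant none was at least 1.5-fold higher than in control. Of 16 genes of interferon-gamma signalling, 3 were at least 1.5-fold higher and 2 at least 1.5-fold lower in Ikk2-CA than in control, against 3.65% and 18.2% of the tested genes. One of the higher genes was Ifng, which rested on the 21 and 4 UMIs given above, and among the 13 genes with a mean of at least 5 CPM it was 2 higher and 2 lower. In the double mutant against control none was 1.5-fold higher and 6 of 16 were 1.5-fold lower, against 2.12% and 17.4%. One of the 6 was Ifng, at 4 UMIs in control and 0, put at a floor of 3, in the double mutant. Among the 13 genes with a mean of at least 5 CPM it was 0 higher and 5 lower. A ratio below 1 was found for 12 of 16, the same share as the 75.0% of all tested genes, and 10 of 16 were below the median gene. The receptor chain Ifngr1 was at 114 CPM in control, 71.9 in Ikk2-CA, 81.7 in Jak2 V617F and 69.0 in the double mutant, while Ifngr2 was at 22.0, 35.4, 19.5 and 27.8 CPM in that order. The kinase Jak1 was at 126, 86.6, 135 and 95.1 CPM and Jak2 at 19.8, 15.6, 18.0 and 11.6 CPM, and the counts do not tell the mutant Jak2 allele from the normal one.

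The transcription factors of the pathway went separate ways. Stat2 was at 12.6, 8.73, 11.8 and 7.27 CPM and Irf9, its partner in an ISRE-binding complex, at 45.3, 29.6, 43.7 and 26.1 CPM, in the order used for Jak1 and Jak2. Irf1 was at 49.6, 56.7, 44.1 and 44.8 CPM and its antagonist Irf2 at 122, 102, 113 and 93.5 CPM. Irf8, a factor of monocyte, dendritic and B cell development, was at 84.2, 229, 59.8 and 47.3 CPM. The class I activator Nlrc5 was at 14.4, 11.7, 15.8 and 11.2 CPM, the class II activator Ciita at 4.27, 6.34, 4.87 and 3.53 CPM, and Batf2 at 2.37, 1.91, 3.87 and 2.94 CPM. Of the inhibitors, Socs1 was at 10.4, 9.56, 12.9 and 9.37 CPM and the phosphatase gene Ptpn2 at 47.5, 51.1, 43.5 and 48.7 CPM.

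Other GTPases of the same families were mostly lower in the double mutant as well. Of 18 listed, 16 were matched by symbol. Of the 15 with UMIs in the double mutant or control, all 15 had a ratio below 1, against 75.0% of the tested genes. Of the same 15, 13 were below the median gene and 12 were at least 1.5-fold lower, against 17.4%. In Ikk2-CA against control 12 of 16 had a ratio below 1, close to the 74.9% of the tested genes. At least 1.5-fold lower were 5 of 16, against 18.2%. Most of them were sparse and not among the tested genes, and the 5 with a mean of at least 5 CPM were Ifi47, 9930111J21Rik2, Gm4951, Gbp5 and Irgq. Of these 5, 3 were at least 1.5-fold lower in the double mutant and 2 in Ikk2-CA, each against control. Ifi47, an effector-type immunity-related GTPase, was nearly level at 90.5 CPM in control, 78.9 in Ikk2-CA, 86.6 in Jak2 V617F and 88.3 in the double mutant. 9930111J21Rik2 was at 27.7, 12.7, 18.9 and 8.72 CPM, the lowest double-mutant ratio of the 5 (log2 −1.67). Gm4951 was at 16.0, 9.86, 17.5 and 10.2 CPM, Gbp5 at 9.70, 9.04, 11.5 and 7.15 CPM and Irgq at 7.83, 5.27, 7.92 and 5.13 CPM.

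Most other interferon-stimulated genes were also lower in both libraries with Ikk2-CA. Of 32 of these that are not GTPases, 19 were at least 1.5-fold lower in Ikk2-CA and 23 in the double mutant, each against control, and none in Jak2 V617F. The shares of all tested genes were 18.2%, 17.4% and 1.66%. Their medians relative to the median gene were −0.43, −0.49 and −0.09. In the same order of libraries, 2, 0 and 1 of the 32 were at least 1.5-fold higher, against 3.65%, 2.12% and 1.17%. A ratio above 1 was found for 5 of the 32 in Ikk2-CA and for 3 in the double mutant. Ifit1, a sensor of foreign RNA, was at 15.6 CPM in control, 4.54 in Ikk2-CA, 14.2 in Jak2 V617F and 7.10 in the double mutant, Rsad2 (viperin) at 15.7, 4.92, 14.7 and 5.35 CPM, Ifi44 at 24.2, 9.54, 20.3 and 7.55 CPM and Rtp4 at 59.4, 28.0, 43.8 and 32.1 CPM. In contrast 15 of 17 interferon-gamma inducible antigen presentation genes were above the median gene in Ikk2-CA and 14 in the double mutant. The class II genes Cd74, H2-Eb1, H2-Aa and H2-Ab1, which B cells also express, were at 133, 57.7, 82.4 and 123 CPM in control. They were at 593, 167, 225 and 241 CPM in Ikk2-CA and at 225, 90.6, 120 and 165 CPM in the double mutant. The summed B cell markers were at 255, 1215 and 107 CPM in the same order of libraries. Their part in the class II levels was not tested.

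Of 10 NF-κB target genes, 7 were at least 1.5-fold higher in Ikk2-CA and 6 in the double mutant, against 3.65% and 2.12% of the tested genes, and these were chosen with earlier results of these libraries known. Nfkbia, the feedback inhibitor of NF-κB, was at 69.9 CPM in control, 325 in Ikk2-CA, 87.4 in Jak2 V617F and 252 in the double mutant, Relb at 6.31, 34.9, 6.46 and 28.9 CPM, Tnfaip3 at 4.16, 19.5, 4.99 and 7.07 CPM and Ccl5 at 8.98, 75.5, 15.1 and 42.8 CPM. Of 10 ATG8 conjugation genes 1 was 1.5-fold lower in Ikk2-CA, Gabarapl1, at 44.8 against 73.2 CPM in control, and none in the double mutant, against 18.2% and 17.4% of the tested genes. Atg7 was at 18.4 CPM in control and 14.2 CPM in the double mutant, Atg12 at 36.8 and 27.2 CPM and Map1lc3a at 15.6 and 12.4 CPM.

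Across the 28 combinations of gate and library, the genes whose log2(CPM + 1) was most like the mean standardised level of the 10 GTPases were Slc25a36 (Pearson r 0.905), the GTPase Gm4951 (0.903), Mettl27 (0.893), Swt1 (0.890), Letm2 (0.887), Dcaf8 (0.887), Zfp975 (0.880) and Dtx3 (0.878). Ifi47 was at 0.785, Irf1 at 0.557 and Irf8 at −0.22. These values are descriptions, since gates of a library share its depth and its pool. Among the 10 genes, each of which enters the mean, Iigp1 was most like it (0.961) and Gbp3 least (0.583) of the 9 with a mean of at least 5 CPM. Irgm1 went most closely with Tgtp2 (0.894) and Iigp1 with Gbp2 (0.897), while Irgm1 and Gbp6 were at 0.226.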

How the data were processed

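The deposited values are counts: whole UMIs per gene and cell barcode, not normalised, per the file headers. The series' design text names Cell Ranger 3.0.1 for counting and the file headers give 4.0.0, a conflict not resolved here; the submitters' processing notes name mm10 and Seurat 4.0.0. Barcodes with 500 to 7500 genes and under 10% mitochondrial UMIs were kept, UMIs were summed per library and gate, and CPM computed. Counting intervals are exact: Poisson for a level, conditional binomial for a ratio and Clopper-Pearson for a share; UMIs of a cell are not independent samples of mice. With 1 library per genotype no p-value is given. A gene at 0 was put at a floor of 3 UMIs. Cells with at least 5000 UMIs were thinned to 5000 for shares and gates. No doublet caller was run; leaving out the 5% of cells with most UMIs per library was an alternative. TMM factors came from edgeR 4.0.16 and median-of-ratios factors from DESeq2 1.42.0 (R 4.3.3), as alternatives only. The 10 genes and all lists were chosen with earlier results of these data known; named were all 10, family GTPases of at least 5 CPM, the pathway genes (1 of them is not reported here), up to 4 per other list by largest absolute log2 ratio, and the 8 most alike. Ratios and intervals were tested on simulated data. Python 3.11.15, numpy 2.4.6, scipy 1.17.1, pandas 2.3.3 and matplotlib 3.10.9 were used.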

Additional observations from a re-analysis of the deposited data

Results flagged for a closer look

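For 5 of the 10 genes the Jak2 V617F allele went with opposite directions in the absence and presence of Ikk2-CA, with both counting intervals clear of a ratio of 1; with 1 library per genotype this difference was not tested. Of the 9601 tested genes 2481, or 25.8%, met the same criterion, and of the 9 GTPases among them 5 did. Tgtp1 was at 0.745 times control in Jak2 V617F and at 1.56 times Ikk2-CA in the double mutant, a difference of 1.06 on the log2 scale, and Tgtp2 at 0.661 and 1.35 times, a difference of 1.03. These near-identical copies share most of their sequence, so they are not 2 separate measurements. Iigp1 was at 1.21 and 0.862 times, a difference of −0.49, Igtp at 1.10 and 0.940 times, a difference of −0.23, and Gbp7 at 1.05 and 0.960 times, a difference of −0.13. The same difference was 0.02 for the median of all tested genes and −0.13 for the median of the 10.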

How the results depend on the processing

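No paired analysis was possible because each genotype has 1 library, and for the same reason no replicate could be left out. The median log2 ratio of the 10 genes in Ikk2-CA against control (−0.58) was −0.33 with TMM factors, −0.30 with median-of-ratios factors, −0.43 as a mean over cells, −0.65 without the 5% of cells with most UMIs and −0.36 standardised to control classes. For the double mutant against control (−0.71) it was −0.47, −0.39 and −0.61 under the first 3 settings, −0.84 in cells with no Xist UMI and −0.56 standardised. For the double mutant against Jak2 V617F (−0.57) it was −0.33 with TMM, −0.26 with median-of-ratios and −0.38 standardised. Against Ikk2-CA (−0.04) it was −0.16 in cells with no Xist UMI, and for Jak2 V617F against control (0.05) −0.038 without the cells with most UMIs. Values under the other settings moved by less than the counting interval. The signs of Ikk2-CA and double mutant against control, and of the double mutant against Jak2 V617F, held under each setting run. The count of genes past 2-fold in either direction, in the order Ikk2-CA, Jak2 V617F and double mutant against control, then double mutant against Ikk2-CA and against Jak2 V617F, was 540, 92, 363, 218 and 217, with a mean of at least 1 CPM 1154, 246, 885, 527 and 565, and with at least 50 CPM 92, 26, 51, 44 and 31. By library totals 175 genes were 2-fold higher and 365 lower in Ikk2-CA against control, by TMM 255 and 162; for the double mutant against control 80 and 283 became 135 and 129, and against Jak2 V617F 72 and 145 became 102 and 53.

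Without thinning, the median percent of cells with a UMI was 25.5% (control), 24.8% (Ikk2-CA), 25.2% (Jak2 V617F) and 31.2% (double mutant), and the median co-detection ratio 1.35 in Ikk2-CA, 1.38 in Jak2 V617F and 1.18 in the double mutant, with 1.30 in control. Of 47 alternative values within gates 42 stayed inside the counting interval. In the stem cell gate the median against control, in cells with no Xist UMI (chosen after seeing the data), was 0.37 for Ikk2-CA and −0.075 for Jak2 V617F. In the granulocyte-monocyte gate it was −0.15 for Ikk2-CA and 0.28 for Jak2 V617F with at least 4 markers, and −0.077 for Jak2 V617F without the cells with most UMIs (chosen after seeing the data). The double mutant had too few lymphoid-primed cells with 4 markers for a value.

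Of 350 alternative log2 ratios of single genes, 204 stayed inside the counting interval, 129 moved beyond it and 17 changed sign from a value whose distance from 0 exceeded counting error. In Ikk2-CA against control the last were Igtp at 0.10 (TMM), 0.13 (median-of-ratios) and 0.046 (standardised), Gbp2 at 0.13, 0.16 and 0.021 in the same order, and Gbp6 at 0.045, 0.076 and 0.10, with 0.0018 as a mean over cells and 0.25 in cells with no Xist UMI. Gbp6 in Jak2 V617F against control was 0.090 in cells with no Xist UMI. Igtp in the double mutant against control was 0.011 (TMM) and 0.083 (median-of-ratios), and Tgtp2 in the double mutant against Jak2 V617F 0.076, 0.15 and 0.013 (standardised). The cause was not tested.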
